A study of Mus musculus with 13 samples.

Results

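Nanog, Dppa3, Gdf3, Slc2a3 and Apobec1 are 5 neighbouring genes on mouse chromosome 6, and their H3K27me3 was compared between SAFB and SAFB2 double knockout (DKO) and wild-type (WT) embryonic stem cells (ESCs). They were followed through all their rows in the authors' promoter table, 9 of 77489 rows used, and through all regions that overlap chr6:122400000-123000000 (mm10), 89 of the 57909 regions in the authors' region tables. The rule itself uses no measured value. SAFB and SAFB2 are related RNA-binding proteins of the nucleus, and the series used ChIP-seq to compare cells with and without them. Its 13 libraries comprise 4 DKO and 5 WT libraries for H3K27me3, and 2 DKO and 2 WT libraries for total H3.

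All cells, DKO and WT alike, were male ESCs of a CAST by B6 cross that carry a Rosa26 RMCE cassette, had been given doxycycline for 3 days and were fixed in 0.6% formaldehyde. The sources used here do not say what the doxycycline switched on. The DKO group rests on 2 clones, clone 4 for H3K27me3 replicate 1 and clone 13 for H3K27me3 replicates 2, 3 and 4 and both libraries of total H3. The library names of WT replicates 1, 4 and 5 share a stem, and those of WT replicates 2 and 3 carry other stems. Old stands in the labels of DKO replicate 3 and WT replicate 4, and New in those of DKO replicate 4 and WT replicate 5. The sources used here leave these words unexplained, and libraries with and without them were also compared separately. No label states that replicates were grown apart, so a p-value reflects only how far these libraries spread, which may be technical.

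H3K27me3 is the trimethylated form of lysine 27 of histone H3. Polycomb repressive complex 2 lays it down, most of all at CpG-rich promoters of genes that are not transcribed, and in ESCs it is typical of developmental regulators and low at genes in active use. Nanog, Dppa3 and Gdf3 are best known as genes that pluripotent cells express together. Nanog encodes a homeodomain transcription factor that holds ESCs in self-renewal. Dppa3, also called Stella, encodes a maternal protein that guards DNA methylation in the zygote. Gdf3 encodes a ligand of the TGF-beta family. Slc2a3 encodes the glucose transporter GLUT3, and Apobec1 encodes the cytidine deaminase that edits apolipoprotein B mRNA.

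The promoter sequences are shown because the interval holds both CpG-poor and CpG-rich starts. RefSeq windows (GRCm38.p6, 250 bases before to 50 after a start) were matched for 2 of the 5 genes, Nanog and Apobec1. Foxj2 and Necap1, 2 neighbours with CpG-rich windows, were added after their values were seen. Each is printed 5′ to 3′ on the strand of the gene, with every CpG in capitals. The windows lie at chr6:122707239-122707538 (+) for Nanog, chr6:122602395-122602694 (-) for Apobec1, chr6:122819934-122820233 (+) for Foxj2 and chr6:122874307-122874606 (+) for Necap1.
Nanog: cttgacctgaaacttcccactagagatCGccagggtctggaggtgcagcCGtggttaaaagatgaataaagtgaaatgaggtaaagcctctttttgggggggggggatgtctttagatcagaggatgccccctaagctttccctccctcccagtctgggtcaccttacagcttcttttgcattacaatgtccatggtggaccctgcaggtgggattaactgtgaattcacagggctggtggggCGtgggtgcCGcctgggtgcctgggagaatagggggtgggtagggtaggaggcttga
Apobec1: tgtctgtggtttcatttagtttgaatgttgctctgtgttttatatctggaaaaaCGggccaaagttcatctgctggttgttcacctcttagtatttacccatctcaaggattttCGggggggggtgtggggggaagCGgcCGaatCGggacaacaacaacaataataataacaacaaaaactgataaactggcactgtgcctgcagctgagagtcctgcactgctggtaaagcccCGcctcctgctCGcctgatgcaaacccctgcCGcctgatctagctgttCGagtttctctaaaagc
Foxj2: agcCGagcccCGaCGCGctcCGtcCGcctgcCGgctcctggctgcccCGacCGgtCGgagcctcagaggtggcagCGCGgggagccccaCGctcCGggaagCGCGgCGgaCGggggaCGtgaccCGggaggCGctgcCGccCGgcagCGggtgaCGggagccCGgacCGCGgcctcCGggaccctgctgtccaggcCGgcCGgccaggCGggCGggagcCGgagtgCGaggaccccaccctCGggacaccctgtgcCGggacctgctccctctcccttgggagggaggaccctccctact
Necap1: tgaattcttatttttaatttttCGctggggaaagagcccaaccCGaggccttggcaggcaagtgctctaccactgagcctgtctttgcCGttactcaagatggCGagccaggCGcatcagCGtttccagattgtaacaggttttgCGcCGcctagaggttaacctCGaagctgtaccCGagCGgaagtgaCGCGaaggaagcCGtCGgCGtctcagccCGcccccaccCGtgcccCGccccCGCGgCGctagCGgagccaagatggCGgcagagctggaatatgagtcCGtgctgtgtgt
The Nanog window held 4 CpG and the Apobec1 window 9, against 37 in the Foxj2 window and 25 in the Necap1 window. The median over 32851 RefSeq windows was 7. Observed over expected CpG was 0.192 at Nanog and 0.514 at Apobec1, with a median of 0.384 over all windows. The octamer core TTTGCAT was looked for on both strands, as was the Sox core ACAATG. The Nanog window held both cores, which 0.813% of all windows do, and the Apobec1 window held the octamer core alone (4.63% of all windows hold it). The Foxj2 window lay inside a region of the authors' lists. The windows of Nanog, Apobec1 and Necap1 overlapped none, the nearest region starting 340 bp past the Nanog window, while the Apobec1 window had 15931 bp to its nearest region. A further neighbour, Rimklb, has a window with 47 CpG that is not printed. It overlapped no region either, and its nearest region lay 127 bp away.

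The libraries were of moderate depth. Region counts ran from 1818647 to 3134799 per H3K27me3 library, of which 2205 to 4151 fell in the interval, and from 525847 to 736566 per H3 library, of which 766 to 1054 did. Promoter rows held 798466 to 1427771 counts per H3K27me3 library. Levels are given as CPM, counts scaled to a common library size with TMM factors, which even out composition. As a check of the labelled cell type, H3K27me3 was read per kb in marker promoter rows with at least 1000 bases that no other row covers, a minimum set after the values were seen. The median was 2.16 CPM per kb for 4 of 6 ESC genes, 91.1 for 6 of 8 lineage regulators and 36.5 for 3 of 6 feeder fibroblast genes. The ranges were 1.36 to 12.3, 6.88 to 111 and 25.5 to 73.9 CPM per kb in the same order. The first 2 ranges overlap, since the lineage regulator Gata4 lay below the ESC gene Esrrb. In bulk chromatin, fewer cells with the mark and less mark per cell cannot be told apart.

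The promoter comparison asked whether any of the 5 genes gains or loses H3K27me3 without SAFB and SAFB2. No member row passed an adjusted p under 0.05 in either direction among the 4 rows with enough counts to be tested (edgeR quasi-likelihood test), against 0.628% of all 32647 rows tested. One of the 4, that of Apobec1, had an unadjusted p under 0.05. DESeq2 called 0 as well, with 0 at an unadjusted p under 0.05, and gave an adjusted p to 2 of the 4. Of all rows 0.19% were called lower and 0.438% higher. Every DKO library lay below every WT library in 0 of the 4 and above in 0, against 1.61% and 1.74% of all rows tested. All 4 lay lower in DKO, with a median log2 fold change of -0.16, and the 2559 tested promoter rows of chromosome 6 outside the interval had a median of -0.084. The 5 untested rows are the 3 of Nanog and 2 of Apobec1.

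**Figure D1:**
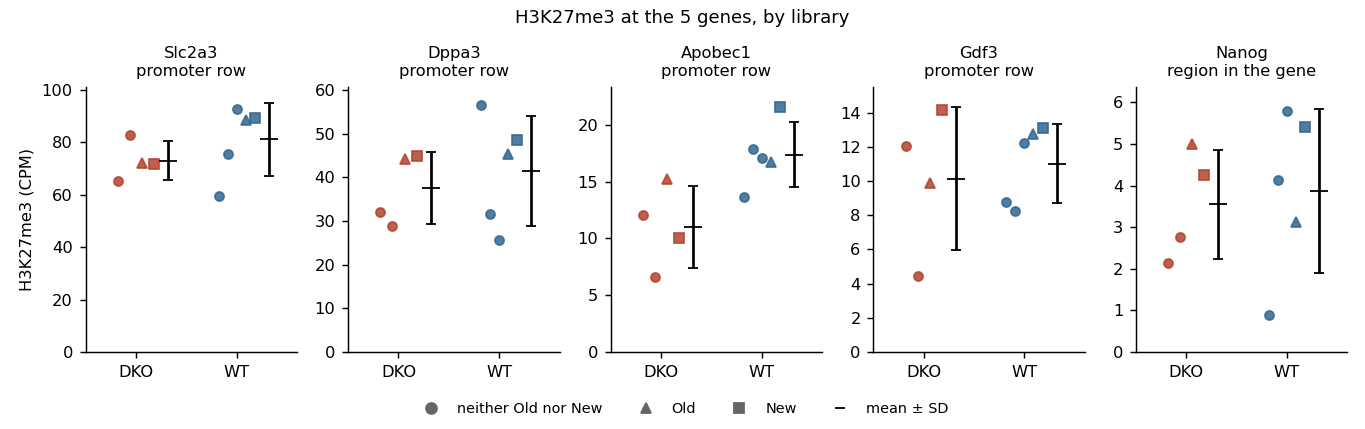
H3K27me3 level (CPM, linear axis from 0) at the tested promoter rows of 4 genes and at the region inside Nanog, DKO left and WT right. Each point is 1 library, its shape shows the library set, and black bars give the mean ± SD (n = 4 DKO and n = 5 WT). The ranges of DKO and WT overlap in all 5 panels.

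Among the genes of pluripotent cells, the Nanog promoter could not be read from the promoter table. Its 3 rows start at neighbouring start sites and cover each other except for 76, 0 and 3 bases, and reads that fall on more than 1 row were not counted. The 3 rows held 0 counts in all 9 libraries, so they give no level of the mark. Nanog therefore rests on the region tables. They hold 1 region inside the gene, of 476 bp at chr6:122707879-122708354, which the authors list for DKO alone and which covers 6.66% of the gene. It had 2.14, 2.77, 5.00 and 4.26 CPM in DKO replicates 1 to 4, against 0.883, 4.13, 5.79, 3.12 and 5.41 CPM in WT replicates 1 to 5. The lowest library and the highest were both WT, so the DKO values lay inside the WT range. The mean was 3.54 ± 1.32 CPM in DKO (SD, n = 4) and 3.87 ± 1.98 CPM in WT (SD, n = 5), at a log2 fold change of -0.075 (SE 0.37, edgeR adjusted p = 0.93). It rests on 82 counts over the 9 libraries, and its log2 fold change turned to 0.099 when scaled on the rest of chromosome 6. Its density was 7.45 CPM per kb in DKO and 8.12 in WT, beside medians over all regions of 8.84 in DKO and 8.83 in WT. Per length, the region inside Nanog thus carried no more of the mark than a typical listed region.

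Dppa3 had the next highest level after Slc2a3 among the 4 measurable promoter rows. Its WT libraries differed by library name, and its DKO libraries by the words Old and New. Its row (chr6:122624410-122627410, + strand) had 32.1, 28.7, 44.1 and 45.0 CPM in DKO replicates 1 to 4, against 56.5, 31.6, 25.6, 45.4 and 48.5 CPM in WT replicates 1 to 5. All DKO values lay between the lowest and the highest WT library. WT replicates 2 and 3, whose library names have other stems, were the 2 lowest of the WT group, and neither is marked Old or New. DKO replicates 3 and 4, which are marked, lay above DKO replicates 1 and 2. Among libraries marked Old or New the log2 fold change of the row was -0.058, and among unmarked ones it was -0.36. The row averaged 37.5 ± 8.28 CPM in DKO (SD, n = 4) and 41.5 ± 12.6 CPM in WT (SD, n = 5), at -0.16 on the log2 scale (SE 0.18, edgeR adjusted p = 0.834). The shared region over this promoter (chr6:122624797-122626366) likewise had WT replicates 2 and 3 lowest and WT replicate 1 highest. It had 8.14, 7.86, 13.7 and 11.4 CPM in DKO, against 21.2, 7.66, 6.84, 16.8 and 15.2 CPM in WT. Its log2 fold change was -0.42 (SE 0.21, edgeR adjusted p = 0.259). Set against the same-stem WT replicates 1, 4 and 5 alone it stood at -0.75 (edgeR adjusted p = 0.0503) and the promoter row at -0.38 (edgeR adjusted p = 0.566). Without WT replicate 1 they stood at -0.23 and -0.043. Total H3 held 47 counts in this region over 4 libraries. A further shared region lies inside the gene, covers 45.3% of the gene and averaged 12.7 ± 1.98 CPM in DKO (SD, n = 4) and 15.9 ± 3.12 CPM in WT (SD, n = 5).

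Gdf3 had the least H3K27me3 of the 4 measurable member promoter rows. Its row (chr6:122609087-122612087, - strand) had 12.1, 4.42, 9.89 and 14.2 CPM in DKO replicates 1 to 4, against 8.76, 8.25, 12.2, 12.7 and 13.1 CPM in WT replicates 1 to 5. The lowest and the highest library were both DKO. The mean was 10.1 ± 4.19 CPM in DKO (SD, n = 4) and 11.01 ± 2.32 CPM in WT (SD, n = 5), at -0.12 on the log2 scale (SE 0.31, edgeR adjusted p = 0.945). The row rests on 104 counts over 9 libraries, and without DKO replicate 2 the log2 fold change turned to 0.085. No listed region overlapped the gene.

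Slc2a3, the glucose transporter, carried the most H3K27me3 of the 4 measurable promoter rows. Its row (chr6:122741745-122744745, - strand) had 65.3, 82.9, 72.3 and 71.7 CPM in DKO replicates 1 to 4, against 59.4, 75.6, 92.8, 88.4 and 89.4 CPM in WT replicates 1 to 5. The lowest library was WT replicate 1 and the 3 highest were WT replicates 3, 4 and 5. It averaged 73.0 ± 7.30 CPM in DKO (SD, n = 4) and 81.1 ± 13.8 CPM in WT (SD, n = 5), at -0.16 (SE 0.15, edgeR adjusted p = 0.779). The row stood at -0.29 among libraries marked Old or New and at -0.027 among unmarked ones. The shared region of 7281 bp over this promoter (chr6:122741338-122748618) had 65.9, 67.5, 74.1 and 65.3 CPM in DKO, against 59.6, 68.9, 77.4, 85.8 and 78.1 CPM in WT. Its log2 fold change was -0.12 (SE 0.11, edgeR adjusted p = 0.552), and it turned to 0.056 when scaled on the rest of chromosome 6.

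RefSeq gives Slc2a3 a long span of 74555 bp (chr6:122727809-122802363). The promoter row above belongs to a start site inside this span, at chr6:122742745, and not to its 5′ end. The span is overlapped by 16 regions, 9 of them shared, 5 listed for DKO alone and 2 for WT alone. They cover 26.3% of the gene. Their summed level was 194, 215, 208 and 241 CPM in DKO replicates 1 to 4, against 202, 210, 216, 231 and 251 CPM in WT replicates 1 to 5. The sums overlapped, with means of 215 ± 19.5 CPM in DKO (SD, n = 4) and 222 ± 19.2 CPM in WT (SD, n = 5). Of the 13 regions tested 6 were higher and 7 lower in DKO, between -0.70 and 0.82 on the log2 scale, and none was called. The extreme values belong to a region listed for WT alone and to one listed for DKO alone, which are lower or higher in DKO by the way they were listed.

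Apobec1 showed the largest difference of the measurable member rows, which did not pass the test. That row belongs to a start site inside the gene, at chr6:122600127, and not to the start of the printed Apobec1 window. Its measurable row (chr6:122599127-122602127, - strand) had 12.1, 6.63, 15.2 and 10.0 CPM in DKO replicates 1 to 4, against 13.6, 17.9, 17.1, 16.7 and 21.6 CPM in WT replicates 1 to 5. DKO replicates 1, 2 and 4 lay below every WT library, and DKO replicate 3 lay inside the WT range. The mean was 10.98 ± 3.61 CPM in DKO (SD, n = 4) and 17.4 ± 2.85 CPM in WT (SD, n = 5), at -0.63 (SE 0.27, edgeR adjusted p = 0.356). Before adjustment the edgeR p was 0.0191. It stood at -0.57 among libraries marked Old or New and at -0.75 among unmarked ones. The row rests on 140 counts over 9 libraries. The other 2 Apobec1 rows, with start sites at 122602444 and 122602371, overlap each other and held 1 and 0 counts. The printed Apobec1 window lies at these starts, so H3K27me3 there could not be read from the promoter rows. No listed region overlapped Apobec1.

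Per kilobase of each row's own sequence, the level of Slc2a3 was 24.3 CPM per kb in DKO and 27.03 in WT. Dppa3 followed with 13.1 in DKO and 14.5 in WT, Apobec1 with 4.89 in DKO and 7.75 in WT, and Gdf3 with 3.38 in DKO and 3.67 in WT. Slc2a3 lay above Dppa3, and Dppa3 above Apobec1, in 9 of 9 libraries, while Apobec1 lay above Gdf3 in 8 of 9. Among the 2224 promoter rows of chromosome 6 that no other row overlaps, 94.5% had a mean level per kb below that of Slc2a3 and 75.3% below that of Dppa3. For Apobec1 the share was 23.7% and for Gdf3 8.09%, so that Gdf3 lay near the bottom of these chromosome 6 rows and Slc2a3 near the top. Among the 36042 such rows of all chromosomes the shares were 95.4% for Slc2a3, 90.2% for Dppa3, 69.5% for Apobec1 and 33.8% for Gdf3. The low rank of Apobec1 thus holds on chromosome 6 alone. Free rows had a median of 30.7 CPM on chromosome 6 and 13.9 CPM over all chromosomes.

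The whole interval shows the same unevenness, as in the plot of region density. Its regions cover 117750 bp. Gdf3 and Apobec1 lie together in a stretch of 45596 bp without a region, where the median gap between regions on chromosome 6 is 1219 bp. The Nanog region stands between gaps of 19651 and 18693 bp. The longest region, of 15829 bp at chr6:122486683-122502511, overlaps Rimklb, which encodes an enzyme that makes N-acetylaspartylglutamate, and was singled out after its values were seen. It had a density of 11.99 CPM per kb in DKO and 13.1 in WT. The densest, of 4988 bp at chr6:122818162-122823149, spans the CpG-rich start of Foxj2, a forkhead transcription factor gene, and was singled out in the same way. It had 18.2 CPM per kb in DKO and 19.7 in WT. Necap1, an endocytosis gene whose window is CpG-rich as well, lies in a stretch of 50804 bp without a region.

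**Figure D2:**
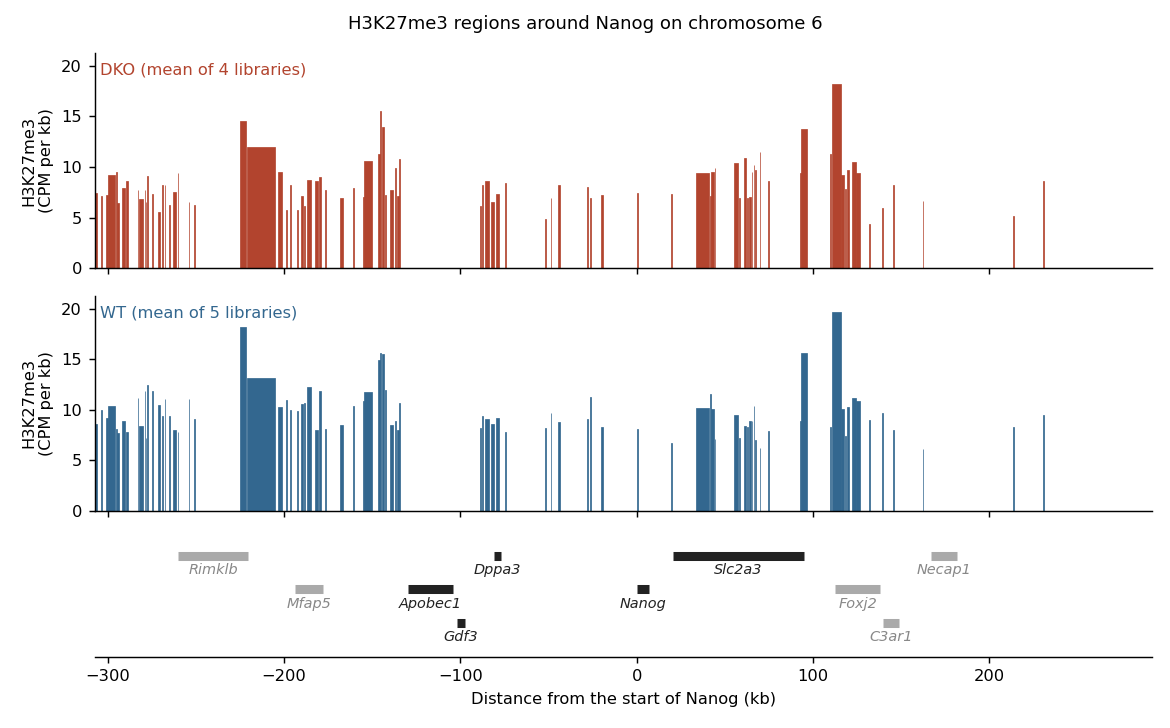
Mean H3K27me3 density (CPM per kb of region, linear axis from 0) of the 89 regions against the distance from the start of Nanog in kb, DKO above and WT below. Bar width is the region's length, and the lowest track gives gene spans with the 5 genes in black and 5 neighbours in grey. Dense regions flank the 5 genes on both sides, and Apobec1 and Gdf3 lie in a stretch without regions.

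The regions were then compared between DKO and WT. Of the 89 regions, 52 are on both genotypes' lists, 14 on the DKO list alone and 23 on the WT list alone. Of the 69 with enough counts, 0 rose and 2 fell in DKO (edgeR adjusted p under 0.05), where 4.03% of all tested regions were called. Of all regions 1.88% were called lower and 2.16% higher, and of chromosome 6 regions outside the interval 1.99% and 0.102%. Before adjustment 14 of the 69 (20.3%) had a p under 0.05 and a lower DKO level, and 1 a higher one, where 15.8% of chromosome 6 regions outside the interval and 10.1% of all regions had such a p and a lower level. Both regions that fell are on the WT list alone, and such regions are lower in DKO by selection: of all 4504 tested regions on the WT list alone 5.73% were called lower. None of the 51 tested shared regions was called (8 had an unadjusted p under 0.05). DESeq2 called 0 (6 lower at an unadjusted p under 0.05) and gave an adjusted p to 26 of the 69. Neither of the 2 regions called by edgeR was among these, so DESeq2 could not call them. The count of 2 became 0 without DKO replicate 3, 4 without WT replicate 1, 1 without any 1 of DKO replicates 1, 2 and 4 and WT replicates 2, 4 and 5, and 0 when scaled on the rest of chromosome 6.

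The region that fell with the smaller p lies in no RefSeq gene, at chr6:122435827-122437052. It had 4.71, 7.40, 5.67 and 9.23 CPM in DKO replicates 1 to 4, against 11.9, 14.7, 11.1, 14.4 and 12.2 CPM in WT replicates 1 to 5. No DKO library reached the lowest WT value, a separation that 2 of the 69 tested regions of the interval and 3.4% of all tested regions show. The other of the 2, singled out by its values, is a shared region at chr6:122520382-122522820 that overlaps the microfibril gene Mfap5. That shared region stood at -0.49 (SE 0.16, edgeR adjusted p = 0.0566) and was not called. The region that fell is on the WT list alone, where selection favours such a separation, and the share within that list was not counted. It averaged 6.75 ± 1.99 CPM in DKO (SD, n = 4) and 12.9 ± 1.63 CPM in WT (SD, n = 5), at -0.92 (SE 0.23, edgeR adjusted p = 0.00807). It stood at -0.83 among libraries marked Old or New and at -1.05 among unmarked ones, and passed in neither. Its call ended without DKO replicate 1, at -0.79, and without DKO replicate 3, at -0.82.

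The other region that fell lies within Foxj2, at chr6:122839216-122840069. It had 4.71, 2.77, 5.00 and 2.48 CPM in DKO replicates 1 to 4, against 6.62, 13.0, 4.21, 7.41 and 7.10 CPM in WT replicates 1 to 5. WT replicate 3 lay inside the DKO range. It averaged 3.74 ± 1.30 CPM in DKO (SD, n = 4) and 7.66 ± 3.22 CPM in WT (SD, n = 5), at -0.98 (SE 0.30, edgeR adjusted p = 0.0393). It stood at -0.92 among libraries marked Old or New and at -1.03 among unmarked ones, and passed in neither. Leaving out DKO replicate 2, 3 or 4 or WT replicate 2, 4 or 5 ended the call, between -1.17 and -0.77. The Foxj2 region over the promoter stood at -0.12 (SE 0.097, edgeR adjusted p = 0.506).

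**Figure D3:**
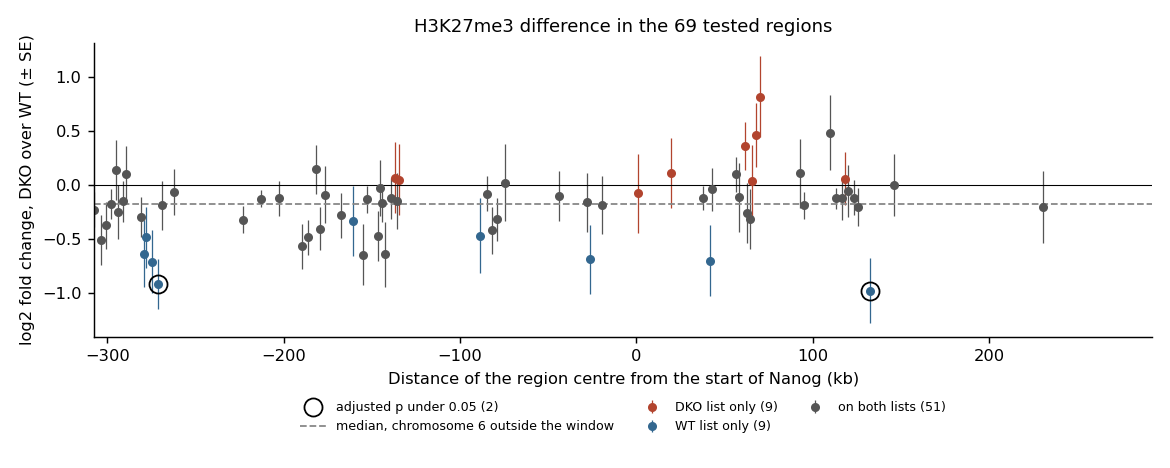
Log2 fold change of H3K27me3, DKO over WT, with its SE, for the 69 tested regions against the distance from the start of Nanog in kb. Red points are on the DKO list alone, blue points on the WT list alone and grey points on both, circles mark the 2 called regions, and the dashed line is the median of -0.18 over chromosome 6 outside the interval. Of the points 53 lie below 0 (scaled on the rest of chromosome 6 their median is 0.014), and both called regions are on the WT list alone.

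Of the 69 tested regions 53 were lower and 16 higher in DKO, with a median of -0.15. Of the 15645 tested regions of chromosome 6 outside the interval 11252 were lower and 4393 higher, with a median of -0.18. The median was 0.089 over regions off chromosome 6. Among shared regions the medians were -0.15 in the interval and -0.15 on the rest of chromosome 6. Scaled on chromosome 6 regions outside the interval, the median of the interval was 0.014 and 0 regions were called. By sixths of the interval, 14 of 16 tested regions were lower in DKO in the sixth farthest below Nanog, with a summed level of 396 ± 15.8 CPM in DKO (SD, n = 4) and 459 ± 47.6 CPM in WT (SD, n = 5). In the next, with Mfap5, a microfibril gene, and part of Apobec1, 15 of 18 were lower. The summed level there averaged 225 ± 13.0 CPM in DKO (SD, n = 4) and 270 ± 15.1 CPM in WT (SD, n = 5) over 24878 bp of regions. The DKO and WT libraries did not overlap there, and they overlapped in every other sixth. This sum includes shared regions as well as regions on the WT list alone, which are lower in DKO by selection. The part of each list in the difference was not counted. How often other stretches of chromosome 6 separate in this way was not counted. In the sixth that holds the rest of Apobec1, Gdf3 and Dppa3, 8 of 9 were lower, with 86.0 ± 5.80 CPM in DKO (SD, n = 4) and 102 ± 12.8 CPM in WT (SD, n = 5), and the libraries overlapped. In the sixth that holds Nanog and most of Slc2a3, 7 of 13 were lower, with 172 ± 18.8 CPM in DKO (SD, n = 4) and 173 ± 21.7 CPM in WT (SD, n = 5). Above them 7 of 11 were lower in the sixth with Foxj2, and 1 of 1 in the last. The sixths were laid after the values were seen, and their difference was not tested.

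The interval's share of all region counts gives 1 value a library. It was 0.107%, 0.105%, 0.114% and 0.118% in DKO replicates 1 to 4, against 0.110%, 0.121%, 0.110%, 0.129% and 0.132% in WT replicates 1 to 5. DKO replicates 1 and 2 lay below every WT library and the others inside the WT range. The widest 95% Wilson interval, that of WT replicate 2, ran from 0.116% to 0.126% and covers counting error only. The share averaged 0.111% ± 0.00592 in DKO (SD, n = 4) and 0.121% ± 0.0103 in WT (SD, n = 5), a difference of -0.0098 percentage points (exact permutation test, two-sided, p = 0.151 over 126 groupings, where the smallest p is 0.00794). Among libraries marked Old or New the difference was -0.015 percentage points, and among unmarked ones it was -0.0080. Total H3 was also lower in DKO, at 0.146% and 0.138% in the 2 DKO libraries and 0.151% and 0.151% in the 2 WT libraries, and its part in the H3K27me3 share was not tested.

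Set beside chromosome 6 alone, the difference was smaller than the spread between libraries. The interval's share of chromosome 6 region counts averaged 0.536% ± 0.0140 in DKO (SD, n = 4) and 0.543% ± 0.0402 in WT (SD, n = 5), with an exact permutation p = 0.778. WT replicate 1 was the highest library at 0.602%, and without it the difference turned to 0.0077 percentage points. It stood at -0.0025 percentage points among libraries marked Old or New and at -0.012 among unmarked ones. WT replicate 1 also had the lowest share of counts on chromosome 6, 18.4% where the other WT libraries had 22.4% to 24.3% and the DKO libraries 19.4% to 22.1%. Chromosome 6 as a whole averaged 20.7% ± 1.096 in DKO (SD, n = 4) and 22.3% ± 2.34 in WT (SD, n = 5), with an exact permutation p = 0.246.

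**Figure D4:**
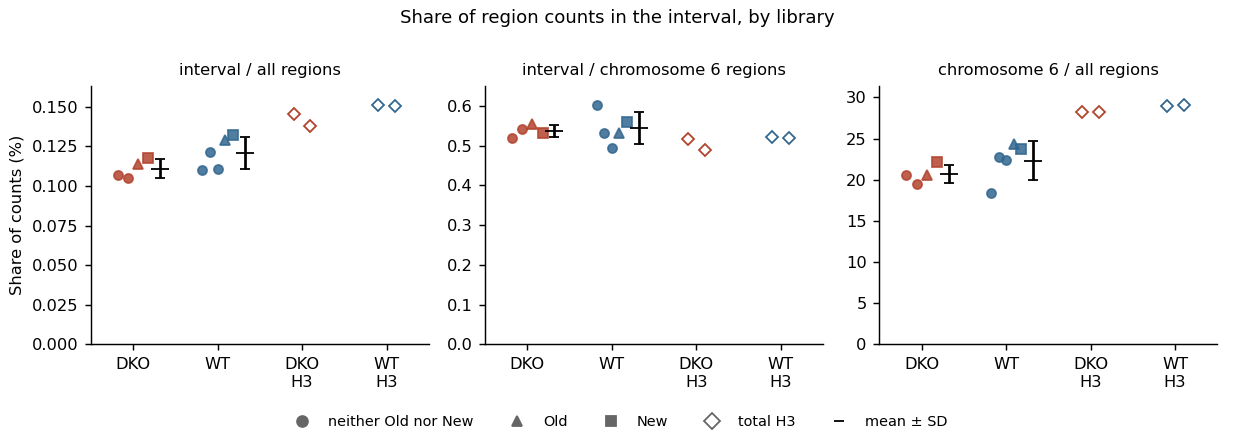
Shares of region counts in percent (linear axes from 0), from left to right the interval of all regions, the interval of chromosome 6 regions and chromosome 6 of all regions. Filled points are H3K27me3 libraries with their library set by shape and the mean ± SD in black (n = 4 DKO and n = 5 WT), and open diamonds are the 2 DKO and 2 WT libraries of total H3. The DKO and WT ranges for H3K27me3 overlap in all 3 panels.

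Chromosome 6 was also laid out in 239 intervals of the same 600 kb width, of which 203 held at least 20 region centres. The interval with Nanog had a log2 ratio of summed CPM, DKO over WT, of -0.18. It ranked 104 of 203 from high to low, where the median was -0.17 and 192 of the 203 lay below 0. Its nearest neighbours stood at -0.22 on the lower side and -0.29 on the upper side. By covered length it ranked 84 of 203. The Nanog start lies 9.63 Mb from Gt(ROSA)26Sor, the gene that marks Rosa26 on the same chromosome.

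**Figure D5:**
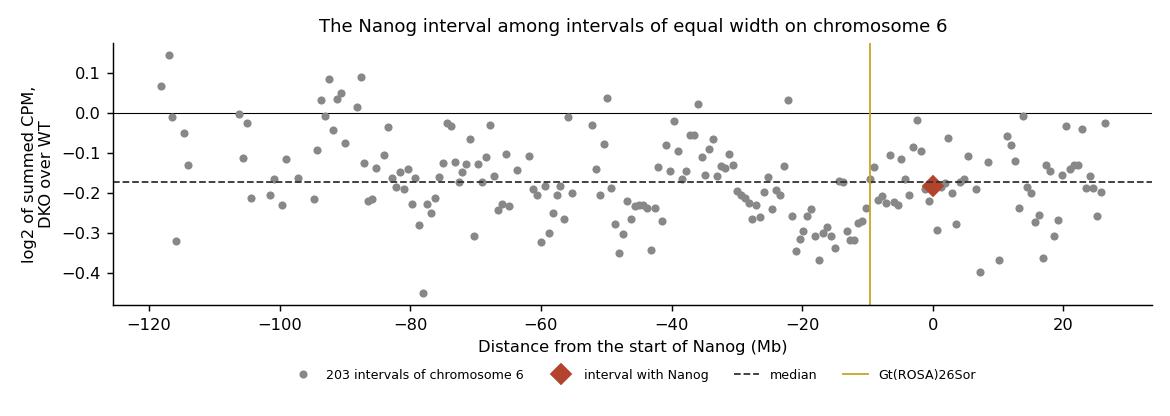
Log2 ratio of summed H3K27me3 CPM, DKO over WT, in 203 intervals of chromosome 6 against their distance from the start of Nanog in Mb. The red diamond is the interval with Nanog, the dashed line the median and the yellow line the place of Gt(ROSA)26Sor. The Nanog interval, at -0.18, lies next to the median line.

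Total H3 served as the background of the mark. Of 32 interval regions tested for total H3, 0 were called by edgeR (2 unadjusted p under 0.05), against 0.0211% of 18938 regions, and DESeq2 called 0. Of 85 regions tested for a DKO-WT difference in H3K27me3 beyond that in total H3, 0 were called by edgeR (4 unadjusted p under 0.05), against 0.00184% of 54290. For the Dppa3 promoter region this difference was 0.031 with SE 0.51, for the Slc2a3 promoter region 0.036 with SE 0.25 and for the Nanog region 0.55 with SE 0.85. Each of these differences was smaller than its SE, and total H3 had 2 libraries a genotype. With SEs of this size, a difference such as the 0.55 at Nanog was not detectable at this depth, and a count of 0 does not show that total H3 was alike.

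Of 23 other genes with a promoter row there, 21 could be tested and 0 were called by edgeR, with a median of -0.11 (1 unadjusted p under 0.05). That gene, Gm5316, averaged 19.2 ± 3.12 CPM in DKO (SD, n = 4) and 28.7 ± 6.80 CPM in WT (SD, n = 5), at -0.62 (SE 0.21, edgeR adjusted p = 0.189). Of 3 further neighbours, chosen after their values were seen, Rimklb had the highest promoter level, 97.5 CPM over all libraries, and stood at -0.16. C3ar1, a complement receptor gene, stood at 0.042 and Necap1 at 0.090. Over all 28 tested promoter rows of the interval 8 were higher and 20 lower, with a median of -0.12, where all rows tested had a median of -0.013.

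Relatives of the 5 genes were counted from named lists. Of 35 genes of the pluripotency network 18 could be tested, 0 rose and 1 fell (edgeR adjusted p under 0.05), where 0.438% of all rows were called higher and 0.19% lower. The median was -0.10, and 6 of the 18 had an unadjusted p under 0.05, against 10.2% of all rows tested. It was Klf2, a transcription factor of the naive state, with 20.5 ± 6.90 CPM in DKO (SD, n = 4) and 36.5 ± 6.83 CPM in WT (SD, n = 5), at -0.80 (edgeR adjusted p = 0.0315). The promoters of Pou5f1 and Sox2, partners of Nanog in that network, were too low to be tested, with 4.55 ± 1.053 CPM in DKO (SD, n = 4) and 4.94 ± 2.93 CPM in WT (SD, n = 5) for Pou5f1 and 7.51 ± 1.30 CPM in DKO and 7.65 ± 3.57 CPM in WT for Sox2. Of 21 relatives of Gdf3 in the TGF-beta family 15 could be tested and 0 were called by edgeR (4 unadjusted p under 0.05). The activin subunit Inhbb stood at -0.34, the activin receptor Acvr2a at 0.49, the ligand Bmp2 at -0.26 and the Nodal antagonist Lefty2 at 0.42. Of 11 glucose transporters related to Slc2a3, 7 could be tested and 0 were called by edgeR (0 unadjusted p under 0.05), with Slc2a2 at 0.35, Slc2a13 at 0.29, Slc2a10 at 0.16 and Slc2a7 at -0.27. Of 6 deaminases related to Apobec1, 4 could be tested and 0 were called by edgeR (0 unadjusted p under 0.05). Cda stood at -0.096, Apobec2 at 0.11 and Apobec4 at -0.034.

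Likeness across the 9 H3K27me3 libraries was described by Pearson's r of log2 CPM over 32619 promoter rows outside the interval, with no test. The rows most like Slc2a3 were Gm18540 on chromosome 6 (r = 0.969) and 4921521D15Rik (r = 0.949). Those most like Dppa3 were Olfr621-ps1 (r = 0.965) and Gm38339 (r = 0.962). For Gdf3 they were Mrgprb8 (r = 0.970) and Gm35013 (r = 0.968), and for Apobec1 Olfr416-ps1 (r = 0.986) and Gm16029 (r = 0.965). The points share depth and library set, and their number is small.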

How the data were processed

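H3K27me3 and total H3 were measured by ChIP-seq. The deposited tables hold raw read counts. Per the file headers, promoter counts came from featureCounts 2.0.3, without strand and without assigning a read to several rows; a row spans 3001 bp (2000 bp before a start site, 1000 bp after it), and 12386 rows share every base with others. Per the submitters' processing notes, bowtie2, MACS2, bedtools and Subread were used with build mm10; their settings, and whether both alleles' reads entered, are not given in those notes. The library names carry the tag b6, which the sources used here do not explain. Lists of regions per genotype are the authors'. A promoter row of 90841178 bp and 37 rows of chromosome M were left out.

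The main test was edgeR 4.0.16 under R 4.3.3 (quasi-likelihood F test, two-sided, filterByExpr with minimum count 10 and total 15, TMM, Benjamini-Hochberg over all rows or regions tested), and an adjusted p under 0.05 is called. The SE is the log2 fold change divided by the root of F. Log2 CPM had a prior count of 2. DESeq2 1.42.0 was an alternative. Shares were compared by exact permutation of libraries. The scripts were tested on simulated data. Genes at a region are RefSeq's (GRCm38.p6), by an overlap of at least 1 bp.

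All rows of the 5 genes are described; regions named are those called or overlapping a member's promoter row, and others are said to be chosen by their values. From each gene list the called genes are named, or the 4 with the smallest p, except 1 gene that is not reported here. The members and lists were chosen with earlier results of these data known.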

Additional observations from a re-analysis of the deposited data

How the results depend on the processing

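Of the 5 genes' promoter rows 0 were called under all 20 alternatives run, and so were 0 interval regions higher in DKO under 20, 0 for total H3 under 8 and 0 beyond total H3 under 15. DESeq2 called 0 regions lower in DKO, but it gave no adjusted p to either of the 2 that edgeR called. These 2 regions lower in DKO became 0 with scaling on chromosome 6 outside the interval and among libraries unmarked by Old or New. They became 1 with library totals, with WT replicates 1, 4 and 5 alone and among libraries marked Old or New, 3 with a term for the library sets or scaling off chromosomes 6 and 11, and 0 to 4 when 1 library was left out (4 without WT replicate 1, 0 without DKO replicate 3). The cause was not tested. The interval's share of all region counts stayed lower in DKO, from -0.015 to -0.0069 percentage points, with exact permutation p = 0.0857 to p = 0.375. Its share of chromosome 6 counts ran from -0.028 to 0.0077, reversing without WT replicate 1 (0.0077, leave-one-out range -0.019 to 0.0077).

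The log2 fold change of Gdf3 turned to 0.085 without DKO replicate 2 (leave-one-out range -0.32 to 0.085). That of the Nanog region turned to 0.14 with WT replicates 1, 4 and 5 alone, 0.10 among libraries marked Old or New, 0.099 with scaling on chromosome 6 (which turned the Slc2a3 promoter region to 0.056), 0.094 without DKO replicate 1, 0.025 without DKO replicate 2 and 0.085 without WT replicate 3 (leave-one-out range -0.32 to 0.094). DESeq2, the replicate block, the unmarked libraries and leaving out WT replicate 5 gave no adjusted p for it.

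The shared replicate numbers do not pair the samples: same-numbered libraries correlated between -0.028 and 0.071 in their deviations over regions. A block by these numbers leaves out WT replicate 5 and crosses the words Old and New, with DKO replicate 4 (New) beside WT replicate 4 (Old). With the replicate block 1 region was called lower, 0 member rows were called, and the share differences were -0.0069 (p = 0.375, exact sign flips) and -0.0030 percentage points (p = 1 by the same test).

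Depth limits the Nanog region, Gdf3 and Apobec1 most, with 82, 104 and 140 counts over 9 libraries, and the total H3 comparisons, with 2 libraries a genotype. Where an alternative leaves 2 libraries a genotype, an exact permutation test cannot pass 0.05. The same holds for the unmarked libraries, with 10 groupings, and for the replicate block, with 16 sign flips.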
